A study of Mus musculus with 39 samples.

Results

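The core circadian clock was followed through 10 genes in bulk tumour RNA: the activators Arntl and Clock, the repressors Per1, Per2, Per3, Cry1 and Cry2, the REV-ERB genes Nr1d1 and Nr1d2, and the clock output gene Dbp. The genes were chosen by symbol, and all 10 were found among the 39179 rows of the count table. The tumours were Braf-mutated melanomas in C57BL/6 mice, and 39 libraries fell into 8 groups by treatment and day. Treatment, begun on day 7 after the tumour cells were injected, was anti-PD-1 plus EPAT, anti-PD-1 alone, EPAT alone or vehicle, and each was sampled at 5 and at 2 days. Every group had 5 libraries except anti-PD-1 on day 2, which had 4. EPAT blocks EP2 and EP4, receptors for prostaglandin E2, and was dosed "bidaily" at 30 mpk in 200 µl. Anti-PD-1, an antibody against an inhibitory receptor of T cells, was given at 200 µg per dose every 2 to 3 days. Vehicle was DMSO-PEG400 and water on the same schedule. The labels give no hour of collection. They also leave unsaid whether each library is its own animal, so a p-value speaks only of the spread among these libraries, which may be technical.

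The mammalian clock is a feedback loop of transcription. ARNTL (also called BMAL1) and CLOCK bind E-boxes as a pair and switch on the Per and Cry genes, whose proteins then repress that pair. The REV-ERB proteins NR1D1 and NR1D2 repress Arntl, and Dbp is a direct E-box target. In tissues sampled around the day, Arntl peaks when the Per, Nr1d and Dbp genes are low. Per1 and Per2 are also switched on by glucocorticoids, and Per1 by cyclic AMP, the second messenger that EP2 and EP4 raise.

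The elements named in that loop were searched in RefSeq promoter windows of GRCm38.p6, running from 250 bases before to 50 after a start, on both strands. Of the 10 genes, 9 had a window there, and Per2 did not. The E-box letters CACGTG were in a window of Per1 and of Cry1, and 8.09% of all 27025 genes with a window held them. The D-box letters TTATGTAA, bound by DBP and its relatives, were in Per3 alone, at 2 places, against 1.11% of all genes. The letters TAGGTCA, the core bound by ROR and REV-ERB proteins, were in a window of Arntl and in 2.97% of all genes. The cyclic AMP element TGACGTCA and the palindromic glucocorticoid response element were in the windows of 0 of the 9 genes, against 2.03% and 0.54% of all genes. The 4 windows that held a match, of Per1, Cry1, Per3 and Arntl, are given below. Capitals mark the match, which starts 166 bases before the start in Per1, 60 before it in Cry1, 205 and 158 before it in Per3, and 31 after it in Arntl.
Per1, chr11:69098699-69098998, plus strand: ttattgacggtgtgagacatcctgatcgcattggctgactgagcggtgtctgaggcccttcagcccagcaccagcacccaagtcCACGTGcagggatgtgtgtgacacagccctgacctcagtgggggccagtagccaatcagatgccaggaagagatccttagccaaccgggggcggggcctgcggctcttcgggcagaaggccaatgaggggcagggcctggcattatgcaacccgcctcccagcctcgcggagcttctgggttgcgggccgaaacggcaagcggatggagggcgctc
Cry1, chr10:85185005-85185304, minus strand: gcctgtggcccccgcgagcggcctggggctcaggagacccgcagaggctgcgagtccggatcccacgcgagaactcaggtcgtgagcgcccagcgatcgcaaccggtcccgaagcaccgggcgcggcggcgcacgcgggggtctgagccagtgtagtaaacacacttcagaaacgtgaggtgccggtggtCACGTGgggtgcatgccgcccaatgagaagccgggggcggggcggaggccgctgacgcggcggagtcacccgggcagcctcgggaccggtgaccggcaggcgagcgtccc
Per3, chr4:151044616-151044915, minus strand: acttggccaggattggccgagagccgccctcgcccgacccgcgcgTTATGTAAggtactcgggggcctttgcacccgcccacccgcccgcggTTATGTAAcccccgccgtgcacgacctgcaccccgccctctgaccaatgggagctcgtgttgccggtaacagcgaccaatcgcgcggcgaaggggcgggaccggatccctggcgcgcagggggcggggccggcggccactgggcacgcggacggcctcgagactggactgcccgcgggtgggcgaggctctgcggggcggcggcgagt
Arntl, chr7:113207261-113207560, plus strand: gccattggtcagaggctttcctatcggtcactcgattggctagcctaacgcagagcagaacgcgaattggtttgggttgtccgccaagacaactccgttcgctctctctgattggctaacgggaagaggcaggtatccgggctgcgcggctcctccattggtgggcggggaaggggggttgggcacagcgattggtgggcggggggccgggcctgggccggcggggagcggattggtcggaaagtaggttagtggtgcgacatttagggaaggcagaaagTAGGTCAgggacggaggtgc

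Total counts per library ranged from 8385741 to 15558113. Of 6 melanocyte genes, the factor gene Mitf was counted in every library (259 to 1065 reads) and Sox10 reached 31 reads. The pigment genes Pmel, Tyr, Dct and Mlana stayed at or under 9 reads in every library, so only Mitf was well counted among these markers. The melanoma name is taken from the sample labels and was not tested by these markers. Tissue markers differed between libraries. Lung genes such as Sftpc and Scgb1a1 (5 genes, mean log2 CPM above 0) marked 23 of the 39 libraries, 9 of 20 on day 5 and 14 of 19 on day 2. In the order of the S numbers that end the titles, the libraries with lung genes came first, with few exceptions. The labels do not say what these numbers stand for. Lung tissue in the tumours and an effect of that order therefore cannot be told apart. The 12 skeletal muscle genes summed to between 28.2 and 16300 CPM in a library. In bulk tissue, fewer cells of a type and less RNA per cell cannot be told apart.

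All 10 clock genes passed the filter on low counts, and their levels spanned more than a 10-fold range. Levels are TMM-scaled CPM, from tags near the 3′ ends of transcripts, which carry no length term. Over the 39 libraries Nr1d2 was the most abundant at 94.3 ± 17.5 CPM (SD), and its lowest library (63.0) lay above the highest library of every other member. Per1 followed at 35.7 ± 10.98, Clock at 32.8 ± 7.14 and Per3 at 28.7 ± 6.49 CPM. Cry1 averaged 23.1 ± 4.36, Dbp 20 ± 6.78, Per2 19.3 ± 7.38 and Nr1d1 19.1 ± 4.24 CPM. Cry2 was at 13.7 ± 2.95 CPM and Arntl lowest at 7.03 ± 2.16 CPM. Below Nr1d2, every gene overlapped its neighbour in this order over the libraries. Within groups Per2 was the most variable member, with an SD of 0.53 on the log2 scale. Of the 2293 tested genes within 0.5 log2 units of its level, 85.1% had a smaller one. Cry1 was the steadiest, with an SD of 0.21, and 15.0% of genes of like level varied less.

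**Figure D1:**
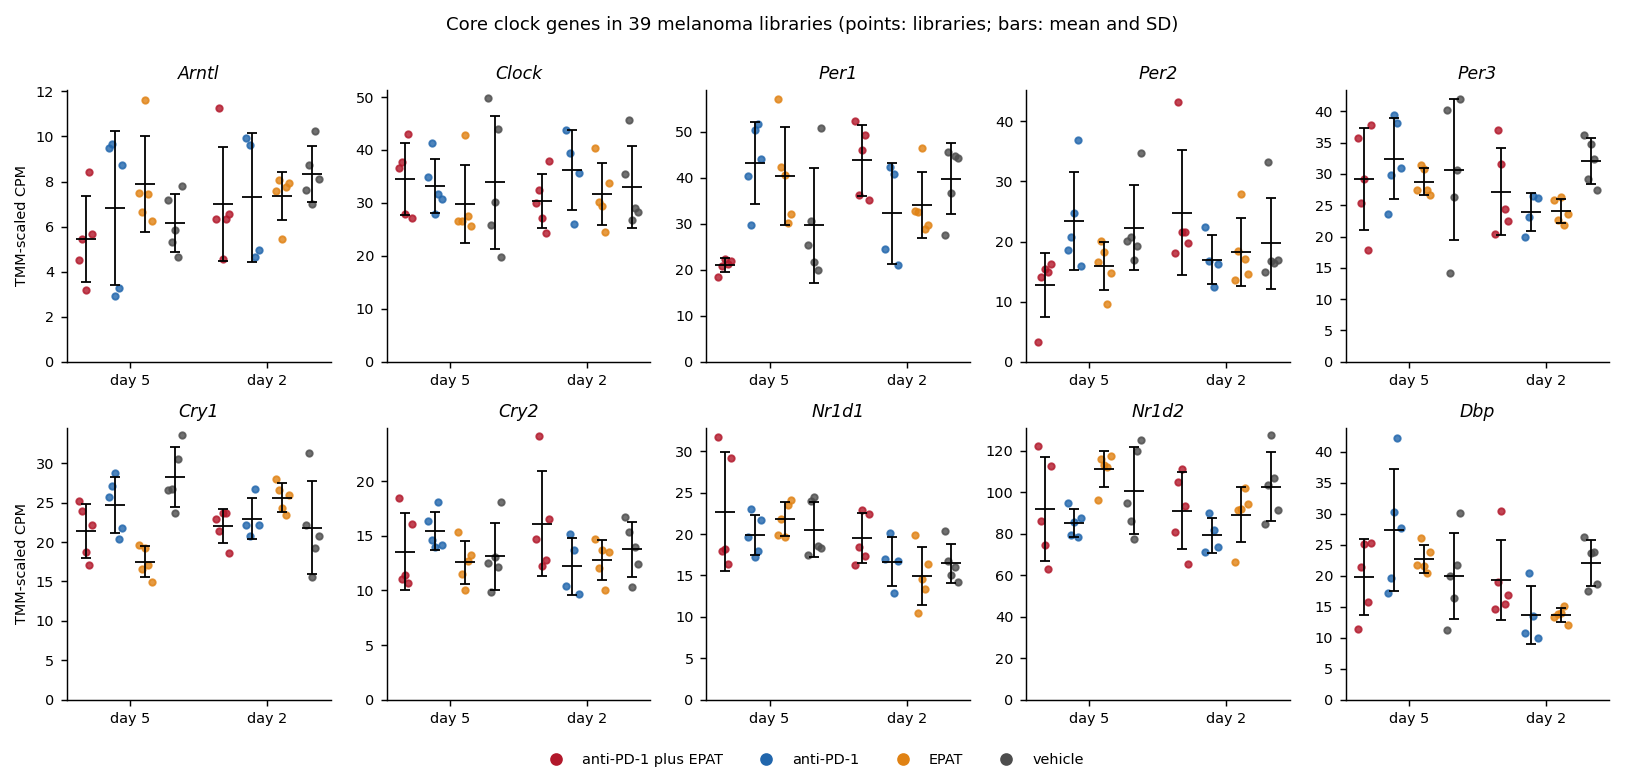
TMM-scaled CPM (vertical axes, from 0) of the 10 clock genes in each library, by day and treatment, with the group mean and SD. Per1 lies between 18.5 and 22.4 CPM in the 5 anti-PD-1 plus EPAT tumours of day 5, and Cry1 between 14.9 and 19.6 CPM in the 5 EPAT tumours of day 5.

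Neither activator passed the test in any comparison. Clock, the histone-modifying partner of ARNTL, had group means of 29.9 to 36.2 CPM, a ratio of 1.21. Arntl had group means of 5.45 to 8.34 CPM, lowest in anti-PD-1 plus EPAT tumours of day 5 (5.45 ± 1.92) and highest in vehicle tumours of day 2 (8.34 ± 1.23). Neither gene reached an unadjusted p under 0.05 in any of the 18 comparisons. On day 5 Arntl had 9.50, 9.65, 2.91, 3.28 and 8.71 CPM in the anti-PD-1 tumours, against 7.20, 5.33, 5.84, 4.65 and 7.79 CPM in vehicle tumours. Of the anti-PD-1 tumours, 2 lay below and 3 above all 5 vehicle tumours.

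Among the Period genes, Per1 was low in the combination on day 5. Per1 had 18.5, 20.9, 22.4, 21.3 and 22.02 CPM in the anti-PD-1 plus EPAT tumours, against 40.4, 29.8, 50.5, 51.8 and 44.0 CPM in anti-PD-1 tumours. The 2 groups did not overlap, and the combination group had the smallest spread of the 8 (21.01 ± 1.53 CPM). The log2 fold change was -1.04 ± 0.22 (SE), the fifth smallest p of all genes, but edgeR's adjusted p was 0.119. Of all genes, 0.0199% were called in this comparison and 0.491% did not overlap. Among the clock genes 0 of 10 were called and Per1 alone did not overlap. Against the EPAT tumours of day 5, with 57.1, 42.5, 40.7, 30.1 and 32.2 CPM, the combination again did not overlap (-0.95 ± 0.22, edgeR adjusted p = 0.218). There 0% of all genes were called and 2.16% did not overlap. The 6 macrophage genes were all higher in the combination (median 0.58, 0 called, 3 at an unadjusted p under 0.05), with sums of 1710 to 3710 CPM, against 890 to 2090 CPM under EPAT. The 6 T cell genes were also all higher (median 0.67, 0 called), at 94.3 to 279 CPM, against 45.5 to 164 CPM. Of the keratinocyte genes 5 of 6 were higher (median 5.23, 0 called), at 10.8 to 129 CPM, against 8.91 to 13.8 CPM. Only replicate 3 of the combination stood out, with a mean log2 CPM of these genes of 3.80. Its other libraries had -1.29 to -0.32, and the EPAT tumours -0.88 to -0.53. The part of these lists in the Per1 difference was not tested. The vehicle tumours of day 5 had 25.4, 30.6, 21.6, 20.04 and 50.8 CPM of Per1, so 2 of the 5 lay within the range of the combination and replicate 5 lay far above it. The combination differed from them by -0.50 ± 0.22 (edgeR adjusted p = 0.267) and anti-PD-1 alone by 0.54 ± 0.22 (0.645). Without vehicle day 5 replicate 5 these values were -0.22 and 0.83, the farthest that leaving out 1 library moved them.

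Each single treatment thus had a higher Per1 mean than vehicle on day 5 and their combination a lower one. The interaction of EPAT with anti-PD-1 on that day was -1.49 ± 0.31. It was the smallest p of all genes tested for it (edgeR adjusted p = 0.478), where 0% of genes were called. Without vehicle day 5 replicate 5 the interaction was -1.77 with an adjusted p of 0.0074. Without that library the combination against anti-PD-1 reached an adjusted p of 0.0246, although the library is in neither group. It enters only through steps that all libraries share, such as the estimate of spread. Without anti-PD-1 day 5 replicate 2 the adjusted p of that comparison was 0.0434. DESeq2 called Per1 in the combination against anti-PD-1 (adjusted p = 0.0119) and against EPAT (0.0431). Of all genes DESeq2 called 18 against anti-PD-1 and 24 against EPAT. With the muscle score in the model the fold change against anti-PD-1 was -1.04 (edgeR adjusted p = 0.108), and with the lung score it was also -1.04 (0.107). The direction of the 12 muscle genes depended on the scale. The fitted log2 fold change was negative for all 12 (median -1.75, 0 called), while 11 of the 12 had a higher mean log2 CPM in the combination. Anti-PD-1 day 5 replicate 4 held the highest muscle score of these 10. Their sum was 315 to 3020 CPM in the combination, against 43.2 to 16300 CPM under anti-PD-1. The 8 adipocyte genes were also all lower, with a median of -1.05 and 0 called, at 23 to 101 CPM in sum, against 14.8 to 248 CPM under anti-PD-1, and their part was not tested. On day 2 the combination tumours had 52.3, 36.4, 46.0, 49.3 and 35.2 CPM of Per1, against 27.7, 45.6, 36.7, 44.9 and 44.4 CPM in vehicle tumours, and the groups overlapped. So the highest and the lowest of the 8 group means of Per1 were both those of the combination, 43.8 ± 7.71 CPM on day 2 and 21.01 ± 1.53 CPM on day 5.

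Per2, the partner of PER1 in the repressor complex, was also lowest in the combination on day 5, at 12.8 ± 5.39 CPM. Its libraries held 3.23, 14.1, 15.4, 14.9 and 16.3 CPM, against 20.1, 20.7, 16.95, 19.2 and 34.6 CPM in vehicle tumours. These groups did not overlap, with replicate 1 of the combination far below the others. The log2 fold change was -0.81 ± 0.31 (edgeR adjusted p = 0.225), and without single libraries it ran from -0.90 to -0.56. In this comparison 0 of the 10 clock genes and 0.0265% of all genes were called, and 1.57% of all genes did not overlap. Macrophage and T cell genes were higher in the combination than in vehicle, 6 of 6 in each list (medians 0.59 and 1.05, 0 called). Macrophage sums were 1710 to 3710 CPM, against 1120 to 2360 CPM in vehicle, and T cell sums 94.3 to 279 CPM, against 55.1 to 133 CPM. Keratinocyte genes were higher in 5 of 6 (median 4.04, 0 called), with sums of 10.8 to 129 CPM, against 6.59 to 15.7 CPM. Again only replicate 3 of the combination stood out, with a mean log2 CPM of these genes of 3.80. Its other libraries had -1.29 to -0.32, and the vehicle tumours -0.91 to -0.18. All 8 adipocyte and all 5 lung genes were lower (medians -2.21 and -0.59, 0 called). Adipocyte sums were 23 to 101 CPM, against 27.4 to 271 CPM, and lung sums 1.21 to 85.5 CPM, against 1.21 to 103 CPM. Their part in the Per2 difference was not tested. Against anti-PD-1 tumours, with 18.7, 20.7, 24.7, 36.9 and 15.99 CPM, Per2 differed by -0.87 ± 0.31 (edgeR adjusted p = 0.673). Averaged over both antibody arms, the EPAT effect on day 5 was -0.68 ± 0.22 for Per2 (adjusted p = 0.889), and 0.0133% of all genes were called.

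Per3, a less essential paralogue, was low under each single treatment on day 2 but passed no test. It had 25.8, 22.7, 26.4, 21.9 and 23.7 CPM in EPAT tumours and 19.9, 23.1, 26.6 and 26.2 CPM in anti-PD-1 tumours. The vehicle tumours had 36.2, 29.2, 34.8, 32.5 and 27.4 CPM, above every library of either group. In these comparisons 2.40% (EPAT) and 3.23% (anti-PD-1) of all genes did not overlap. The combination tumours of day 2 had 20.4, 37.0, 31.6, 24.5 and 22.6 CPM and overlapped vehicle (-0.24 ± 0.20, edgeR adjusted p = 0.734). The log2 fold changes were -0.41 ± 0.20 under EPAT and -0.42 ± 0.22 under anti-PD-1, with edgeR adjusted p-values of 0.802 and 0.720. Per3 lies within the span of Camta1 on the same strand, with 0 shared exon bases, and Camta1 itself was not called in any comparison.

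**Figure D2:**
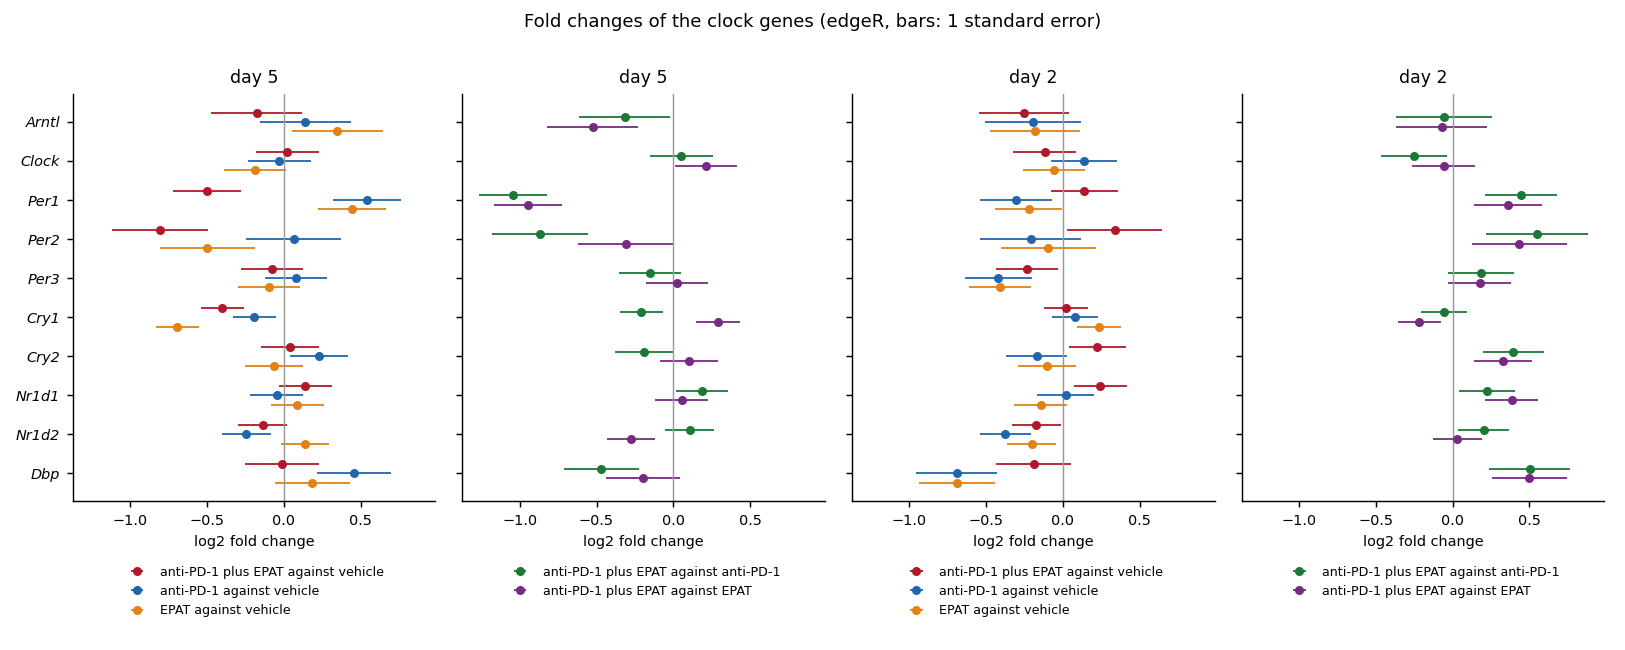
Log2 fold changes of the 10 clock genes (horizontal axes) with 1 standard error, for each treatment against vehicle and for the combination against each single treatment, on day 5 and day 2. Per1 lies at -1.04 and -0.95 against the single treatments on day 5, and Dbp at -0.69 against vehicle under both single treatments on day 2.

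Of the cryptochrome genes, Cry1 was lowest under EPAT on day 5. Cry1, the stronger repressor of the pair, had 19.6, 16.6, 19.3, 17.1 and 14.9 CPM in EPAT tumours, against 26.6, 26.8, 23.7, 30.6 and 33.5 CPM in vehicle tumours. All 5 EPAT tumours lay below all 5 vehicle tumours. The log2 fold change was -0.69 ± 0.14, the third smallest p of all genes in that comparison, with an edgeR adjusted p of 0.118. Here 0 of the 10 clock genes and 0% of all genes were called by edgeR. Cry1 was the only clock gene whose groups did not overlap, where 0.471% of all genes did not. DESeq2 called it (adjusted p = 0.00475), as 1 of 3 among all genes. The averaged EPAT effect on Cry1 on day 5 was -0.45 ± 0.10 (edgeR adjusted p = 0.220, DESeq2 0.0205). Of all genes DESeq2 called 5 in that comparison. The combination differed from vehicle by -0.40 ± 0.14 (edgeR adjusted p = 0.197) and anti-PD-1 by -0.19 ± 0.14 (0.691). On day 2 EPAT tumours had 28.04, 26.6, 24.4, 23.4 and 25.9 CPM, against 22.2, 31.3, 15.6, 19.3 and 20.8 CPM in vehicle tumours, and the groups overlapped. The averaged EPAT effect on day 5 minus that on day 2 was -0.54 ± 0.14 (edgeR adjusted p = 1.00), where 0% of genes were called. The 8 adipocyte genes all had a lower mean under EPAT than in vehicle on day 5, with a median of -3.24 and 0 called. They summed to 17 to 66.2 CPM in EPAT tumours, against 27.4 to 271 CPM in vehicle tumours, and the part of fat tissue in the Cry1 difference was not tested. Cry2 had group means of 12.2 to 16.1 CPM and no unadjusted p under 0.05.

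Of the REV-ERB genes, Nr1d1 was the one clock gene that passed the test, and it did so between days. Nr1d1 encodes a heme-binding repressor of Arntl. Averaged over the 4 treatments, Nr1d1 rose on day 5 over day 2, by 0.33 ± 0.09 on the log2 scale (edgeR adjusted p = 0.0343). Its level was 21.2 ± 4.07 CPM in the 20 day 5 libraries (16.4 to 31.7, median 19.8), against 16.9 ± 3.22 CPM in the 19 day 2 libraries (10.5 to 22.96, median 16.7). The day ranges overlapped. Day 5 minus day 2 was 0.18 in the combination, 0.26 under anti-PD-1, 0.57 under EPAT and 0.31 in vehicle tumours. In EPAT tumours, where it was largest, Nr1d1 had 19.9, 21.9, 19.7, 23.5 and 24.1 CPM on day 5, against 19.8, 10.5, 14.6, 13.3 and 16.4 CPM on day 2. The background in this comparison was 2.20% of all genes called, 332 in all, and Nr1d1 made 1 of 10.

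That call stood close to its threshold. It was lost when any of 14 single libraries was left out, with adjusted p-values over all 39 such fits of 0.0243 to 0.068 and log2 values of 0.29 to 0.36. These were EPAT day 2 replicates 2, 3 and 4, EPAT day 5 replicates 4 and 5, anti-PD-1 day 2 replicates 3 and 4, vehicle day 5 replicates 2 and 3, vehicle day 2 replicates 2 and 3, combination day 5 replicates 1 and 5, and combination day 2 replicate 4. With the lung score in the model the value was 0.30 with an adjusted p of 0.104, and with the muscle score 0.38 with an adjusted p of 0.0423. The lung score followed the S numbers of the titles and was above 0 in 14 of 19 day 2 and 9 of 20 day 5 libraries. An effect of that order on Nr1d1 could thus be told apart from an effect of day only in part. Tissue markers moved between the same days. All 6 fibroblast genes had a higher mean on day 5 and 4 of them rose. They summed to 4240 to 35400 CPM on day 5, against 4210 to 20200 CPM on day 2. All 6 cell cycle genes had a lower mean on day 5, with 0 called, and summed to 812 to 2440 CPM, against 1360 to 2470 CPM on day 2. All 8 adipocyte genes had a lower mean on day 5 and 1 of them fell, with sums of 14.8 to 271 CPM, against 14.9 to 1570 CPM on day 2. All 6 T cell and all 5 endothelial genes were also higher on day 5 (medians 0.61 and 0.47). So were all 12 muscle genes (median 1.07), while all 5 lung genes were lower (median -0.63). The part of fibroblasts, cycling cells, fat, T cells and endothelium in the Nr1d1 difference was not tested. Nor could the hour of collection be, which the labels do not give. Nr1d1 shares 263 exon bases with Thra, a thyroid hormone receptor gene on the opposite strand, and no source says whether counting used strand, so reads there cannot be assigned with certainty. Thra differed between days by 0.27 ± 0.08 (edgeR adjusted p = 0.0728). Nr1d2, the second REV-ERB gene, had group means of 79.3 to 111 CPM. It differed from vehicle by -0.37 ± 0.17 under anti-PD-1 on day 2 (edgeR adjusted p = 0.657).

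Dbp, a PAR-bZIP transcription factor gene, was low under both single treatments on day 2. It had 13.3, 13.8, 14.1, 15.1 and 12.01 CPM in EPAT tumours and 10.8, 20.4, 13.5 and 10.0 CPM in anti-PD-1 tumours. The vehicle tumours had 26.3, 17.5, 23.7, 23.9 and 18.8 CPM, above all 5 EPAT tumours and above 3 of the 4 anti-PD-1 tumours. The log2 fold changes were -0.69 ± 0.24 under EPAT and -0.69 ± 0.26 under anti-PD-1, with edgeR adjusted p-values of 0.697 and 0.563. In the combination on day 2 Dbp had 14.6, 18.98, 30.5, 15.5 and 16.9 CPM, which overlapped vehicle (-0.19). The interaction on day 2 was 1.19 ± 0.36 (edgeR adjusted p = 0.475). In each of these 3 comparisons on day 2 edgeR called 0% of all genes and 0 of 10 clock genes, with 2 clock genes at an unadjusted p under 0.05 (6.23% to 7.28% of all genes). DESeq2 and limma also called 0 of the 10 there. Of all genes DESeq2 called 1 to 4 and limma 0. Dbp, like Per3, was among the 2.40% of all genes that did not overlap between EPAT and vehicle. Other tissue moved with this. All 12 muscle genes had higher means under EPAT (median 3.04) and under anti-PD-1 (median 3.38) than in vehicle on day 2, with 0 called (8 and 9 at an unadjusted p under 0.05). Their sum was 28.2 to 3680 CPM under EPAT and 43.6 to 3500 CPM under anti-PD-1, against 39.2 to 550 CPM in vehicle. All 6 keratinocyte genes had lower means than in vehicle under both treatments, with 0 called, and Krt5 was at 0 reads in 28 of the 39 libraries. They summed to 7.54 to 15 CPM under EPAT and 6.99 to 16.1 CPM under anti-PD-1, against 12.4 to 164 CPM in vehicle, and their part in the result was not tested. With the muscle score in the model Dbp differed by -0.64 under EPAT and by -0.66 under anti-PD-1.

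Between days, averaged over treatments, Dbp was 0.41 ± 0.12 higher on day 5 (edgeR adjusted p = 0.0697) and DESeq2 called it (0.0307). Of all genes DESeq2 called 669 between days, against 332 by edgeR. The Dbp difference was unequal between treatments, 0.03 in the combination, 0.98 under anti-PD-1, 0.73 under EPAT and -0.20 in vehicle tumours. Under anti-PD-1 Dbp had 17.3, 19.7, 30.4, 42.2 and 27.7 CPM on day 5, against 10.8, 20.4, 13.5 and 10.0 CPM on day 2. EdgeR's adjusted p fell under 0.05 when any of 6 libraries was left out, with 0.0341 to 0.136 over all 39 fits. They were vehicle day 5 replicate 1, anti-PD-1 day 5 replicates 1 and 2, anti-PD-1 day 2 replicate 2, combination day 5 replicate 1 and combination day 2 replicate 3. Dbp shares 539 exon bases with Sphk2, a sphingosine kinase gene on the opposite strand, which differed between days by 0.15 ± 0.08 (edgeR adjusted p = 0.350).

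Set side by side, the 10 genes gave small medians. Over the 10 treatment comparisons within a day their median log2 fold change ran from -0.20 (anti-PD-1 against vehicle on day 2, 7 of 10 negative) to 0.25 (anti-PD-1 plus EPAT against EPAT on day 2, 7 of 10 positive). The median of all genes stayed between -0.03 and 0.02 there. For EPAT against vehicle on day 2, 9 of 10 were negative, with a median of -0.16, and the interaction on day 2 was positive in 8 of 10, with a median of 0.45 against 0.01 over all genes. In the remaining comparisons, which were the combination against vehicle and against each single treatment on day 2, anti-PD-1 against vehicle on day 5, the averaged EPAT effect on day 2, and vehicle between days, edgeR called 0 of 10 clock genes and 0% of all genes. From 0 to 2 clock genes had an unadjusted p under 0.05 in each of these, where 3.46% to 10.2% of all genes did. DESeq2 and limma called 0 of the 10 in these comparisons. Of all genes DESeq2 called 0 to 85 and limma 0 to 1. In the day 5 treatment comparisons named above, from 1 to 3 clock genes had an unadjusted p under 0.05, where 1.70% to 16.5% of all genes did. There limma called 0 of the 10 in each, and 0 to 6 of all genes. Over the test of any difference among the 8 groups, edgeR called 0 of the 10 and 0.564% of all genes, with 4 clock genes and 15.4% of all genes at an unadjusted p under 0.05. The 4 were Per1 (adjusted p = 0.0698), Cry1 (0.106), Dbp (0.141) and Nr1d1 (0.208), and DESeq2 called the first 3 of them. Of all genes DESeq2 called 900 in this test, against 85 by edgeR.

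Beyond the core loop, 24 clock-related genes were examined, including Rora and Rorb, the PAR-bZIP genes Tef and Hlf, the repressor gene Nfil3 and the kinase genes Csnk1d and Csnk1e. Of these 22 passed the filter. EdgeR called 0 of 22 in each of the 17 directional comparisons, and 1 of 22, Klf9, for any difference among the groups (adjusted p = 0.0407). Klf9 encodes a Krüppel-like factor induced by glucocorticoids. It averaged 92.8 ± 27.8 CPM in anti-PD-1 plus EPAT tumours of day 5, against 159.9 ± 31.02 under anti-PD-1, 152 ± 8.66 under EPAT and 157 ± 23.9 in vehicle tumours. In the combination against anti-PD-1 on day 5, 6 of the 22 had an unadjusted p under 0.05, where 6.31% of all genes did, and all 6 were lower, with 0 called. The count was 7 of 22 in the combination against EPAT on day 2 (7.36% of all genes) and 5 of 22 in the combination against vehicle on day 2 (10.2%). On day 5 against anti-PD-1 the 6 were Klf9 (-0.78 ± 0.18), the deubiquitinase gene Usp2 (-0.82 ± 0.24), the E-box repressor gene Bhlhe40 (-0.73 ± 0.23), Rorb (-0.98 ± 0.35), the CLOCK-ARNTL repressor gene Ciart (-1.23 ± 0.44) and Klf10 (-0.55 ± 0.21).

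Per2 moved with genes of the glucocorticoid response. The score was the mean log2 CPM of Fkbp5, Tsc22d3, Zbtb16, Sgk1, Klf9, Cdkn1a and Errfi1, leaving out Per1, and a second score took 10 genes of the cyclic AMP response. Each score was set against the 10 clock genes, and adjusted p-values are over these 20 relations. The scores were chosen after the data had been seen, and these p-values do not cover that choice. Over the 39 libraries Per2 had r = 0.705 and rho = 0.590 with the glucocorticoid score (permutation adjusted p = 2e-04, the smallest that 100000 permutations allow over 20 relations, and 0.0014). Centred on group means r was 0.579 (adjusted p = 0.0111). Within days it was 0.805 on day 5 (adjusted p = 2e-04) and 0.571 on day 2 (0.169). Without the 2 libraries farthest from the median score, combination day 2 replicate 2 and combination day 5 replicate 1, it was 0.496. Per1 had r = 0.479 and rho = 0.475 with the same score (permutation adjusted p = 0.016 and 0.0222), r = 0.609 on day 5, 0.116 on day 2 and 0.271 centred on group means (adjusted p = 0.255). With the cyclic AMP score no clock gene passed in all libraries by Pearson's r. Per1 had r = 0.381 there (adjusted p = 0.0743), and Arntl had r = 0.376 (0.0743) and rho = 0.429 (0.0467). Centred on group means, Per3 had r = -0.539 with it (adjusted p = 0.0111), against -0.313 as measured (0.170).

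The glucocorticoid score was lowest in the combination on day 5, at 5.81 ± 0.18 log2 CPM, against 6.28 ± 0.15 under anti-PD-1, 6.04 ± 0.23 under EPAT and 6.29 ± 0.09 in vehicle tumours. Of the 8 response genes, counting Per1, 7 were lower in it than in vehicle (median -0.38) and all 8 lower than under anti-PD-1 (median -0.78). Fkbp5, a co-chaperone of the glucocorticoid receptor, was the 1 of 8 that edgeR called in each of these comparisons. There 0.0265% and 0.0199% of all genes were called. Fkbp5 averaged 25.1 ± 5.61 CPM in the combination, against 54.3 ± 7.34 under anti-PD-1, 41.6 ± 10.6 under EPAT and 57.0 ± 12.9 in vehicle tumours. Its log2 fold change was -1.18 ± 0.21 against vehicle (edgeR adjusted p = 0.0148) and -1.11 ± 0.21 against anti-PD-1 (0.0256). The group means of Per1 and Per2 were lowest in this same group. Of the 8 response genes 6 were lower in the combination than under EPAT on day 5 (median -0.48) and 2 higher, with 0 called. Of the 10 cyclic AMP genes 9 were lower there (median -0.44) and 1 higher, with 0 called. Of these 10, 6 had an unadjusted p under 0.05, as did 3 of the 8 and 12.7% of all genes. The cyclic AMP score was 5.07 ± 0.41 log2 CPM in the combination on day 5, against 5.72 ± 0.25 under EPAT. It was 5.37 ± 0.16 under anti-PD-1 and 5.27 ± 0.19 in vehicle tumours.

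**Figure D3:**
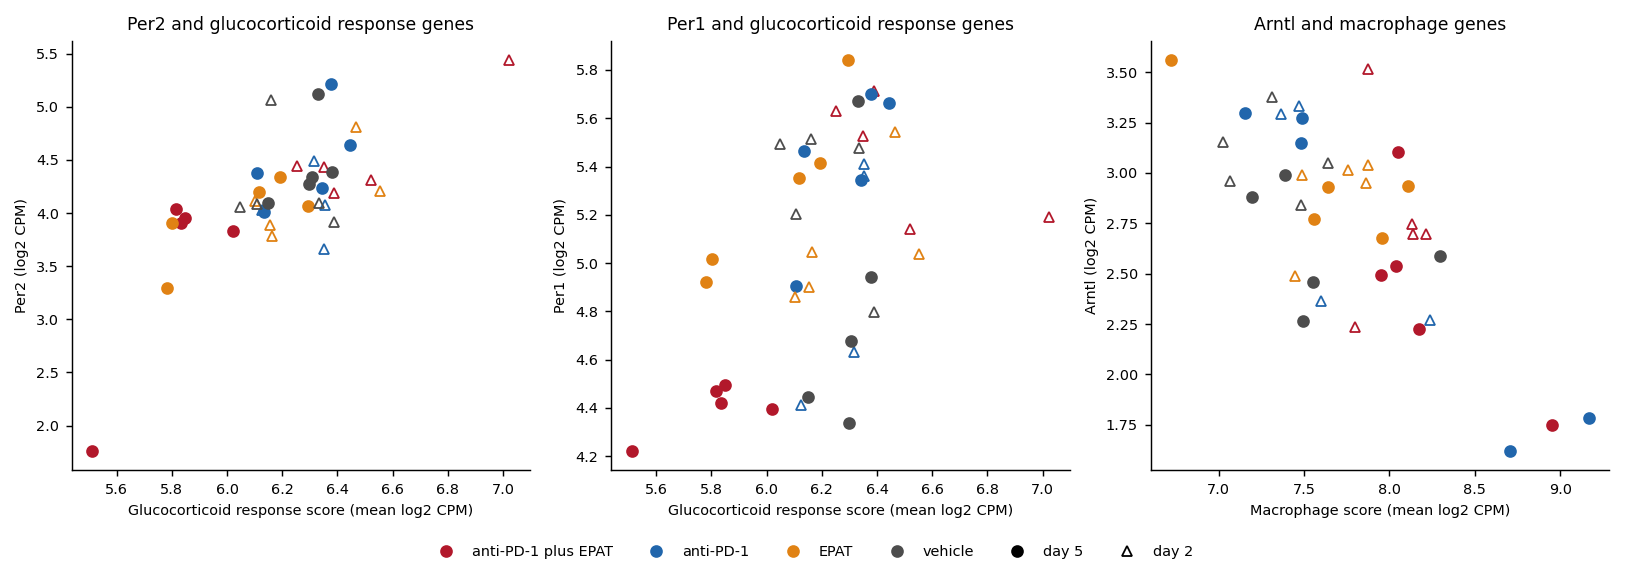
Log2 CPM of Per2 and Per1 against the glucocorticoid response score (mean log2 CPM of 7 genes without Per1), and of Arntl against the macrophage score (6 genes), for 39 libraries coloured by treatment and filled for day 5. The 5 filled anti-PD-1 plus EPAT points lie at scores of 5.51 to 6.02, and r is 0.705 for Per2, 0.479 for Per1 and -0.718 for Arntl.

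Across the 39 libraries most pairs of clock genes correlated weakly. Of the 45 pairs, 29 had r above 0 and the median r was 0.11. Benjamini-Hochberg adjustment over 45 permutation tests left 4 pairs, all positive and each with an adjusted p of 0.0331. They were Per1 with Per2 (r = 0.486), Per3 with Nr1d2 (0.483), Per3 with Cry2 (0.465) and Per3 with Dbp (0.460). Their rank correlations were 0.470, 0.487, 0.372 and 0.575, with adjusted p-values of 0.0411, 0.0411, 0.171 and 0.00495. Per3 was in 3 of the 4. Centred on group means, their r values were 0.340, 0.496, 0.472 and 0.278, and 0 of 45 pairs passed, nor did any within day 2 or within day 5. Within days r ran from 0.249 on day 2 to 0.560 on day 5 for Per1 with Per2, and from 0.680 on day 2 to 0.258 on day 5 for Per3 with Dbp. Without the 2 libraries farthest from the median of the first gene the 4 r values were 0.419, 0.444, 0.367 and 0.542, and 1 of the 45 pairs passed.

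No negative correlation of Arntl with its repressors and targets passed the test. Over its 8 pairs with the Per, Cry, Nr1d and Dbp genes r ran from -0.234 (Dbp) to 0.128 (Per1), with 4 negative and 0 at an unadjusted p under 0.05. With Nr1d1, its direct repressor, Arntl had r = -0.110. Clock had 6 negative values among its 8, and 3 had an unadjusted p under 0.05, Per1 (-0.402), Dbp (-0.384) and Nr1d2 (-0.341), with adjusted p-values of 0.0995, 0.105 and 0.190. After regression on the lung score Clock with Per1 reached r = -0.451 (adjusted p = 0.0373). It was then the 1 negative pair of 5 that passed, beside the same 4 positive pairs. The activators had r = 0.277 with each other (adjusted p = 0.281).

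**Figure D4:**
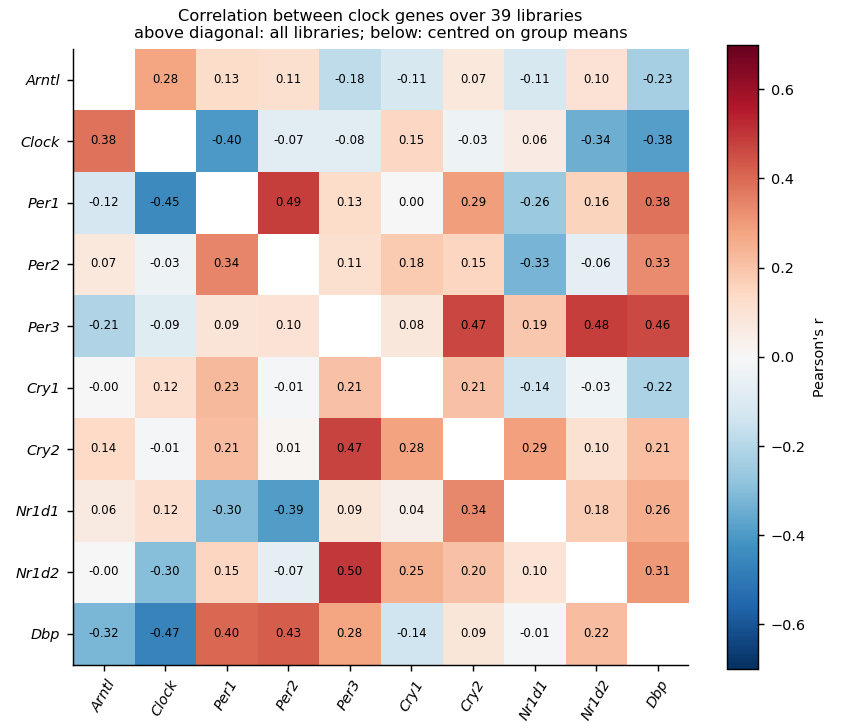
Pearson's r between each pair of the 10 clock genes over 39 libraries of log2 CPM, above the diagonal as measured and below it after each group's mean was subtracted; red is positive and blue negative. Per3 has its 3 highest values with Nr1d2, Cry2 and Dbp, and above the diagonal the Arntl row holds values between -0.23 and 0.28.

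The levels of some clock genes ran with the tissue marker scores of a library. Each of the 10 genes was set against the scores of 11 marker lists, and 6 of the 110 relations had a permutation adjusted p under 0.05. Arntl was lower where the 6 macrophage genes were higher, with r = -0.718 and rho = -0.624 (adjusted p = 0.0011 and 0.0022). Centred on group means r was -0.700 (adjusted p = 0.0374). It was -0.824 on day 5, -0.411 on day 2 and -0.603 without the 2 libraries farthest from the median. Arntl also had r = -0.604 with the T cell score and 0.482 with the cell cycle score (adjusted p = 0.0033 and 0.039). Centred on group means their adjusted p-values were 0.0665 and 0.492. The cell cycle relation was 0.636 on day 5 and -0.108 on day 2, and its rho had an adjusted p of 0.281. Clock passed with the lung score, but that score fell into separate clusters, with 16 libraries at -1.63 or below and 23 at 2.76 or above. With few exceptions these clusters followed the order of the S numbers in the titles. Within the 23 Clock had r = 0.644 and within the 16 it had r = 0.161 (permutation adjusted p = 0.0198 and 0.787 over 20 relations). Cry2 and Nr1d1 each had r = -0.498 with the cell cycle score (0.0295), with r centred on group means of -0.539 and -0.281.

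Within groups, the genes whose pattern was most like a clock gene were not clock genes. Among 11499 genes with a mean log2 CPM of at least 1, the 3 with the highest Spearman rho over the 39 centred libraries were Apc, Ankib1 and Trip11 for Clock (0.903 to 0.902) and Scd2, Rictor and Anks1b for Arntl (0.796 to 0.792). They were Prkaca, Taldo1 and Zfp628 for Per1 (0.641 to 0.595), where Prkaca encodes a catalytic subunit of the cyclic AMP-dependent kinase. They were Hadh, Flnc and Sec61b for Per2 (0.761 to 0.691) and Nacc2, Pot1a and Gstm1 for Per3 (0.688 to 0.686). For Cry1 they were Trp53rkb, Pcbp3 and B4galt7 (0.615 to 0.577) and the first 2 for Cry2 were Aplp2 and Ezh1 (0.728 and 0.718). For Nr1d1 they were Ypel4, Kdm4b and Mttp (0.630 to 0.622) and for Nr1d2 Armcx2, Hmgn3 and Sfxn3 (0.777 to 0.764). For Dbp they were Cbx7, Abhd4 and Vhl (0.729 to 0.691). The highest rank of one clock gene among all 15069 others for another was 416, Nr1d2 for Per3 (rho = 0.425), so 97.2% of genes lay below it.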

How the data were processed

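Deposited whole-number counts per Ensembl gene were used for all tests, and the authors' deposited log2 CPM table entered 1 alternative. Libraries were made with a QuantSeq forward kit, per the labels' protocols, which date tumour isolation to day 4 and so match neither time point. Groups follow each sample's treatment and time point labels. The first number of each title followed treatment and day, except in anti-PD-1 day 5 replicate 5, EPAT day 5 replicate 1 and EPAT day 2 replicate 5. Those libraries share their first title number with the other day of their treatment. Per the submitters' processing notes the tools were bcl2fastq, STAR, featureCounts and limma with mm10 and GRCm38. No source used here gives versions or whether counting used strand. Symbols came from the GENCODE annotation of GRCm38, and 37607 of 39179 identifiers matched.

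Genes were kept by filterByExpr (minimum count 10, minimum total 15), which left 15070. Libraries were scaled by TMM, and edgeR 4.0.16 in R 4.3.3 fitted a quasi-likelihood model with 1 mean per group to all 39 libraries (31 residual degrees of freedom, common biological coefficient of variation 0.323). Each adjusted p is Benjamini-Hochberg over all genes of a comparison, 2-sided, called under 0.05, and standard errors come from the size of the fold change over √F. There were 17 directional comparisons and a test of any difference among the 8 groups. Log2 CPM values for correlations used a prior count of 2, and correlations were tested with 100000 2-sided permutations (numpy 2.4.6). DESeq2 1.42.0 and limma 3.58.1 were alternatives. Every pair of libraries within a group differed by more than counting noise (lowest chi-square per gene 10.7). The steps were tested on simulated data.

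All members are reported. Members at an unadjusted p under 0.05 in a comparison were followed through the alternatives, and the 3 most similar genes were taken by Spearman rho of group-centred log2 CPM, of which 1 is not reported here. Members with non-overlapping groups or for context are named besides. The members and lists were chosen with earlier results of these data known.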

Additional observations from a re-analysis of the deposited data

Results flagged for a closer look

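Of 80 sets of libraries (10 clock genes in 8 groups), 9 held 1 library set apart from the rest of its group by a gap that was large for the group's range, a test by which chance flags about 1 in 20 groups. Per2 had 4 of the 9. Per2 was at 5.44 log2 CPM in anti-PD-1 plus EPAT day 2 replicate 2 and at 1.76 in anti-PD-1 plus EPAT day 5 replicate 1. In vehicle tumours it was at 5.06 in day 2 replicate 2 and at 5.12 in day 5 replicate 5. The low library held the lowest glucocorticoid score of all 39 (5.51) and the high combination library the highest (7.02). Per1 was at 5.54 in EPAT day 2 replicate 3, and Arntl in that library was at 2.49. Nr1d2 was at 6.06 in EPAT day 2 replicate 1 and at 6.59 in EPAT day 5 replicate 1, both below the rest of their group. Clock was at 5.43 in EPAT day 5 replicate 3. The causes were not tested.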

How the results depend on the processing

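Over 26 values of a clock gene in a comparison, 1222 alternative values were computed: 1190 stayed on their side of the threshold, 18 lost it, 14 gained it and 0 changed direction. DESeq2 called 1 clock gene in EPAT against vehicle, in the combination against anti-PD-1, in the combination against EPAT and in the averaged EPAT effect, all on day 5. Of all genes it called 3, 18, 24 and 5 there. It called 2 clock genes between averaged days, where it called 669 of all genes. For any difference among the groups it called 3 clock genes and 900 of all genes. Between averaged days, limma on the log2 table, no filter on low counts, the replicate block and the lung score each gave 0 clock genes called. Of all genes these settings called 137, 209, 149 and 111. With the replicate block Nr1d1 was at 0.33 with an adjusted p of 0.0511. The block used the second number of each title, which does not pair the libraries: same-numbered libraries of different groups correlated at 0.0192 on average (-0.557 to 0.575), with 44 of 133 pairs over 0.1 and 8 of 39 libraries most like their own number. Leaving out single libraries gave 0 to 1 called for the combination against anti-PD-1 on day 5, 0 to 2 between averaged days, 0 to 1 for the interaction on day 5 and 0 to 1 for any difference. Correlated pairs numbered 0 to 5 without single libraries. They numbered 0 centred on groups, 0 on day 2, 0 on day 5 and 1 without the 2 farthest libraries. Vehicle day 5 replicate 5 and combination day 5 replicate 4 each left 0 when omitted. The cause was not tested. Leaving out libraries for the pairs, and the response and tissue scores, were chosen after seeing the data. Regressed on the lung score 5 pairs passed, 1 of them negative (Clock with Per1). For any difference among the groups, a model of only the groups compared is the same fit and has no value of its own. Per2 had as few as 30 reads in a library and Arntl 38, which limits precision.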
